A study of Mus musculus with 6 samples.

Results

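Adherens junction and Eph-ephrin transcripts were followed in RNA-Seq libraries of the E14.5 mouse lens. The set held 9 genes, Cdh1, Cdh2, Ctnna1, Ctnna2, Ctnnb1, Ctnnd1, Jup, Epha2 and Efna5. They were taken by gene name from a table of raw counts for 13024 genes, and all 9 were present and passed the filter on low counts. The study asked which transcripts differ between lenses with and without Gata3, a zinc finger transcription factor of lens fibre differentiation. Each library came from a pool of 10 lenses of 5 embryos, with 3 control pools and 3 pools labelled CKO, on a mixed C57BL/6 and FVB background. The CKO genotype was Gata3 f/f with the Pax6-Cre transgene, in which an ocular enhancer and the P0 promoter of Pax6 drive Cre in the precursors of lens and cornea in the head surface ectoderm. The study also notes Cre in scattered cells of the retina. The study states that expression changes caused by the transgene itself remain to be examined. Such an effect cannot be told apart from loss of Gata3 here, since the control pools lacked Cre. Their genotype was given as Gata3 f/wt in the Results of the study, as Gata3 f/f in its Methods and as wild type in the sample labels, so they are called control here.

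Cadherins are transmembrane proteins that join neighbouring cells by binding cadherins on the next cell. Inside the cell, beta-catenin or plakoglobin binds the cadherin tail and recruits alpha-catenin, which links the complex to actin, and p120-catenin keeps the cadherin at the membrane. In the lens, the epithelium carries both E-cadherin (Cdh1) and N-cadherin (Cdh2), while fibre cells rely on N-cadherin. Epha2 is a receptor tyrosine kinase and Efna5 is a membrane-anchored ephrin ligand, and mice lacking either can develop cataract.

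Levels are in CPM, a gene's share of its library's counts scaled by TMM, and replicates carry the numbers of the sample titles. Libraries held 15157230 to 18811104 counts, and a member held between 600 and 28563 counts in a library, so the spread between pools rather than the depth limited the comparison. Control replicate 2 stood apart, with a TMM factor of 0.869 against 0.998 to 1.05 in the other libraries, and control replicate 1 and CKO-labelled replicate 2 stood apart in markers of mesenchyme and pigment cells, given with the marker lists. The targeted gene was examined first. Gata3 stood at 12.8, 27.2 and 8.71 CPM in control replicates 1, 2 and 3, and at 59.0, 54.1 and 46.5 CPM in replicates 1, 2 and 3 labelled CKO. Counts of Gata3 in the libraries labelled CKO therefore all lay above those of the controls, with a log2 fold change of 1.72 (SE 0.40, edgeR adjusted p = 0.650, DESeq2 adjusted p = 0.00163). The deletion removes a single exon, and counts per gene do not show whether that exon was among the reads, so they do not check the labels. The study reported from exon-level reads that this exon was excised in the mutant lenses. Its qPCR with primers spanning that exon found Gata3 strongly reduced in them. Those data were not analysed here, and libraries are named by their labels.

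None of the 9 members passed the test for a difference between the groups. In edgeR's quasi-likelihood test with Benjamini-Hochberg adjustment, 0 of 9 members and 0 of 12879 genes tested (0%) passed the threshold of 0.05. At an unadjusted p under 0.05 edgeR called 0 of 9 members against 457 genes (3.55%). DESeq2 called 0 of 9 members against 85 of 12866 genes with an adjusted p (0.661%), and limma voom called 0 genes and gave 435 genes an unadjusted p under 0.05, with 0 members among them. The 3 control and the 3 CKO-labelled values overlapped for all 9 members, whereas they did not overlap for 1077 genes (8.36%). The log2 fold change was above 0 for 7 members and below 0 for 2, with a median of 0.043 beside 0.0019 over all genes tested. The 95% interval of the log2 fold change lay within -0.5 and 0.5 for 7 members, the exceptions being Cdh1 and Epha2. In whole-lens RNA, fewer cells of a type and less RNA per cell cannot be told apart.

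**Figure D1:**
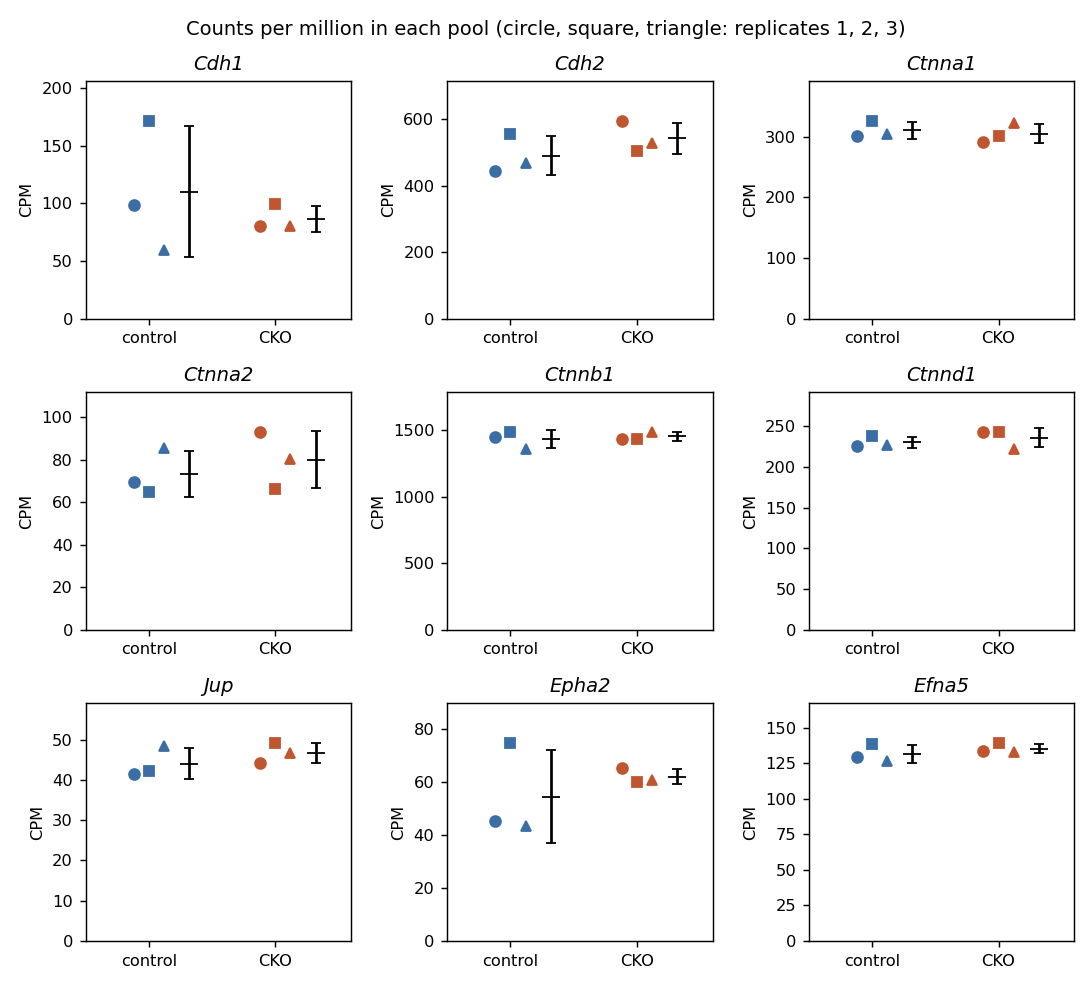
Level of each of the 9 genes in CPM, on axes that start at 0, in 3 control pools (blue) and 3 pools labelled CKO (orange), with the mean and SD of each group in black. The groups overlap in all 9 panels. Control replicate 2 (square) is the highest control value of every member but Ctnna2 and Jup, with Cdh1 at 172 CPM and Epha2 at 74.7 CPM.

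Cdh1 encodes E-cadherin, the cadherin of epithelia, and lies at chr8:106603351-106670246 on the forward strand of mm10. It stood at 99.0, 172 and 59.8 CPM in control replicates 1, 2 and 3, and at 80.01, 99.7 and 80.03 CPM in CKO-labelled replicates 1, 2 and 3. The control pools alone spanned from the lowest to the highest of the 6 values, and the CKO-labelled values fell inside that span. The means were 110.2 ± 56.9 CPM in control and 86.6 ± 11.4 CPM in CKO-labelled pools (SD, n = 3 each). The log2 fold change was -0.35 (SE 0.36, 95% interval -1.20 to 0.51, edgeR adjusted p = 0.9998, exact permutation p = 0.8). As a change relative to control the interval ran from -56.5% to 42.3%, so a wide range of changes in E-cadherin remained compatible with these pools. The sign rested on control replicate 2, without which the log2 fold change was 0.14, and without control replicate 3 it was -0.64 (unadjusted p = 0.0402, adjusted p = 0.512 in edgeR). In the fit without control replicate 3, 1234 genes had an unadjusted p under 0.05, 1 of them a member.

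Cdh2 encodes N-cadherin and lies at chr18:16588877-16809246 on the reverse strand. It stood at 446, 557 and 469.7 CPM in control replicates 1, 2 and 3, and at 596, 506 and 529 CPM in CKO-labelled replicates 1, 2 and 3. The highest value was CKO-labelled and the lowest was control, but control replicate 2 exceeded CKO-labelled replicates 2 and 3. The means were 491 ± 58.6 and 544 ± 46.9 CPM (SD, n = 3 each), and the log2 fold change was 0.15 (SE 0.12, 95% interval -0.13 to 0.42, edgeR adjusted p = 0.9998, exact permutation p = 0.3). The log2 fold change was 0.076 without CKO-labelled replicate 1 and 0.26 without control replicate 2, the latter with an edgeR p of 0.0229 before and 0.664 after adjustment. In the fit without control replicate 2, 806 genes had an unadjusted p under 0.05, 2 of them members.

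Ctnna1 encodes alpha-E-catenin, the actin linker found in epithelia, and lies at chr18:35118859-35254779 on the forward strand. It stood at 301, 327 and 304 CPM in control replicates 1, 2 and 3, and at 292, 301 and 322 CPM in CKO-labelled replicates 1, 2 and 3. The values of the groups interleaved, with means of 311 ± 13.9 and 305 ± 15.3 CPM (SD, n = 3 each). Its log2 fold change was -0.025 (SE 0.076, 95% interval -0.21 to 0.16, edgeR adjusted p = 0.9998, exact permutation p = 0.6). The value turned to 0.023 without control replicate 2, to 0.0053 without CKO-labelled replicate 1 and to 0.082 without TMM factors. Its exons share 95 bases with Lrrtm2 on the opposite strand, a gene with a mean of 150.5 counts, and the strand option of the counting was not stated.

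Ctnna2 encodes alpha-N-catenin, the form of neural tissue, and lies at chr6:76881637-77979699 on the reverse strand. It stood at 69.4, 64.9 and 85.8 CPM in control replicates 1, 2 and 3, and at 93.2, 66.4 and 80.5 CPM in CKO-labelled replicates 1, 2 and 3. The lowest pools were control replicate 2 and CKO-labelled replicate 2, and the values of the groups interleaved above them. The means were 73.4 ± 11.0 and 80.05 ± 13.4 CPM (SD, n = 3 each), with a log2 fold change of 0.12 (SE 0.16, 95% interval -0.25 to 0.50, edgeR adjusted p = 0.9998, exact permutation p = 0.6). The log2 fold change was 0.0014 without CKO-labelled replicate 1, 0.055 without control replicate 2, 0.24 without CKO-labelled replicate 2 and 0.25 without control replicate 3.

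Ctnnb1 encodes beta-catenin, which serves both the junction and Wnt signalling, and lies at chr9:120929216-120960507 on the forward strand. It stood at 1450.5, 1484 and 1359 CPM in control replicates 1, 2 and 3, and at 1434, 1433 and 1486 CPM in CKO-labelled replicates 1, 2 and 3. The lowest and the second highest of the 6 values were both control. The means were 1431 ± 64.6 and 1451 ± 30.4 CPM (SD, n = 3 each), and the log2 fold change was 0.020 (SE 0.094, 95% interval -0.20 to 0.24, edgeR adjusted p = 0.9998, exact permutation p = 0.8). As a change relative to control the interval ran from -13.1% to 18.3%. Ulk4 on the opposite strand shares 759 exon bases with Ctnnb1 and had a mean of 196.8 counts.

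Ctnnd1 encodes p120-catenin and lies at chr2:84600071-84650765 on the reverse strand. It stood at 227, 238 and 227 CPM in control replicates 1, 2 and 3, and at 243, 243 and 222 CPM in CKO-labelled replicates 1, 2 and 3. Both the highest values and the lowest were CKO-labelled. The means were 230.4 ± 6.71 and 236 ± 11.9 CPM (SD, n = 3 each), and the log2 fold change was 0.036 (SE 0.071, 95% interval -0.13 to 0.20, edgeR adjusted p = 0.9998, exact permutation p = 0.4). As a change relative to control the interval ran from -8.83% to 15.3%.

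Jup encodes plakoglobin, the relative of beta-catenin that serves adherens junctions and desmosomes, and lies at chr11:100368958-100397763 on the reverse strand. It stood at 41.4, 42.3 and 48.5 CPM in control replicates 1, 2 and 3, and at 44.2, 49.2 and 46.7 CPM in CKO-labelled replicates 1, 2 and 3. Control replicate 3 exceeded CKO-labelled replicates 1 and 3, so the groups overlapped. The means were 44.0 ± 3.87 and 46.7 ± 2.51 CPM (SD, n = 3 each), and the log2 fold change was 0.083 (SE 0.094, 95% interval -0.14 to 0.31, edgeR adjusted p = 0.9998, exact permutation p = 0.3).

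The RefSeq promoter windows held entries for 6 members, Ctnna2, Ctnnb1, Ctnnd1, Jup, Epha2 and Efna5, in 8 windows. The 250 bases before each start were searched on both strands for the GATA words AGATAA or AGATAG or TGATAA or TGATAG, the site class that GATA factors bind, and for the E-box CAGGTG, the site class of the Snail and Zeb repressors of E-cadherin. The words of both motifs are of equal length and none is part of another. A GATA word stood in 1 of 8 member windows, that of Jup, and in 26.5% of 32851 windows of all genes. The E-box stood in 1 of 8 member windows, that of Ctnna2, and in 17.2% of all windows. These letter matches describe the sequence and do not show binding. Both windows are printed 5′ to 3′ along the gene's strand, with the matched word in capitals, because they are the member windows with a match. The Jup window is chr11:100397791-100398040 of GRCm38.p6, reverse strand, with the GATA word at -74 from the start, and the Ctnna2 window is chr6:77979668-77979917, reverse strand, with the E-box at -182.
Jup: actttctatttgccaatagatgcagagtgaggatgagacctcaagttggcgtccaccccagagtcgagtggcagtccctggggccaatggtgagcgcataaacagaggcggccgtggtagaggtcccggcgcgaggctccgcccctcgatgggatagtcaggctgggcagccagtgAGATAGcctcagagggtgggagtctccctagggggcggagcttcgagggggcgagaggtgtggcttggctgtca
Ctnna2: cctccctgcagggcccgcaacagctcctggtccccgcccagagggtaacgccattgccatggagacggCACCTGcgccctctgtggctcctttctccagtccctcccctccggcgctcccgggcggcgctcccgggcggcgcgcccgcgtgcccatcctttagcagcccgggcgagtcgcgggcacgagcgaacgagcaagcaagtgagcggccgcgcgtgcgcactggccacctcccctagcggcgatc
Both genes had overlapping groups in the counts above, with log2 fold changes of 0.083 for Jup and 0.12 for Ctnna2.

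Reads of related members could be confused only where their transcripts are alike. The longest run of identical bases between transcripts was 35 bases for Ctnna1 and Ctnna2, 26 bases for Cdh1 and Cdh2, and 20 bases for Jup and Ctnnb1. The run shared by plakoglobin and beta-catenin is printed to show how short the stretch is that these armadillo relatives have in common, in capitals since every base is identical.
Jup and Ctnnb1: GAGAAGCTTCTGTGGACCAC

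Epha2, the receptor, lies at chr4:141301240-141329384 on the forward strand. It stood at 45.2, 74.7 and 43.5 CPM in control replicates 1, 2 and 3, and at 65.3, 59.8 and 60.8 CPM in CKO-labelled replicates 1, 2 and 3. The CKO-labelled values lay close together, above control replicates 1 and 3 and below control replicate 2. The means were 54.5 ± 17.5 and 62.0 ± 2.91 CPM (SD, n = 3 each), and the log2 fold change was 0.19 (SE 0.21, 95% interval -0.32 to 0.70, edgeR adjusted p = 0.9998, exact permutation p = 0.4). The size of this difference depended on each control pool. The log2 fold change was 0.085 without control replicate 1 and 0.049 without control replicate 3. Without control replicate 2 it was 0.49 (SE 0.079), with an edgeR p of 0.000419 before and 0.125 after adjustment over all genes. That fit gave 806 genes an unadjusted p under 0.05.

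Efna5, the ligand, lies at chr17:62604184-62881317 on the reverse strand. It stood at 129.8, 138 and 126 CPM in control replicates 1, 2 and 3, and at 134, 139 and 133 CPM in CKO-labelled replicates 1, 2 and 3. Control replicate 2 fell between the CKO-labelled values, and the other control values lay just below them. The means were 132 ± 6.25 and 135 ± 3.46 CPM (SD, n = 3 each), and the log2 fold change was 0.043 (SE 0.066, 95% interval -0.12 to 0.20, edgeR adjusted p = 0.9998, exact permutation p = 0.4). As a change relative to control the interval ran from -7.67% to 14.9%, the narrowest of the 9.

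**Figure D2:**
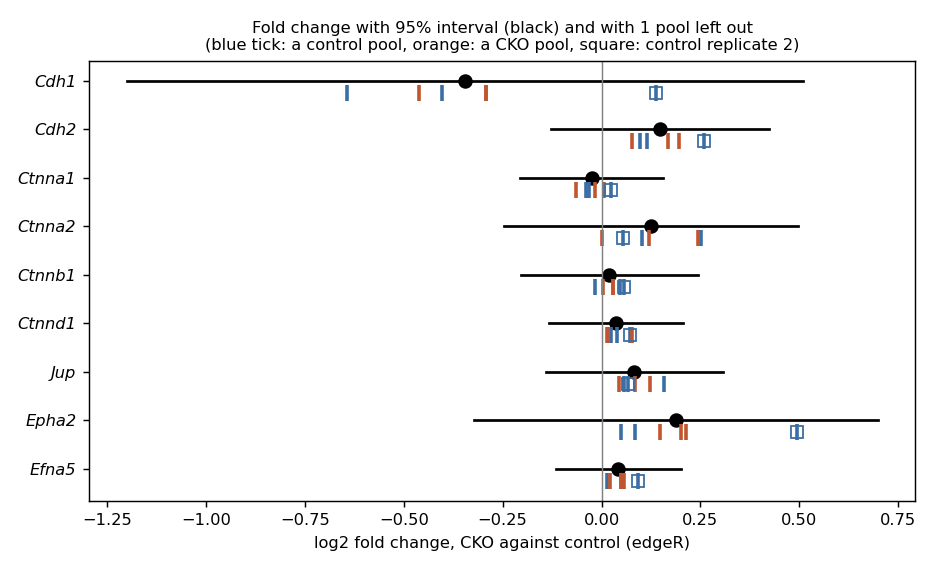
The log2 fold change of the CKO-labelled against the control pools in edgeR (black point, bar for the 95% interval), with the values after leaving out 1 control pool (blue) or 1 CKO-labelled pool (orange) below each bar and a square for control replicate 2. All 9 intervals include 0, and leaving out control replicate 2 moves Cdh1 to 0.14 and Epha2 to 0.49.

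The members differed in their spread between pools, without a clear break between steady and variable genes. The SD of log2 CPM within groups was 0.051 for Ctnnb1, 0.054 for Efna5, 0.060 for Ctnnd1, 0.068 for Ctnna1, 0.10 for Jup and 0.15 for Cdh2, all below the median of 0.161 over all genes tested. It was 0.23 for Ctnna2, 0.31 for Epha2 and 0.55 for Cdh1, which was more variable than 93.4% of genes. Beta-catenin by contrast was more variable than 4.19% of genes. The genes tested include many with far lower counts than the members. The exact permutation test with 3 against 3 pools cannot go below p = 0.1, and all 9 members gave 0.3 or more.

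Compared per kilobase of exon, beta-catenin was by far the most abundant transcript of the set. Over the 6 libraries Ctnnb1 averaged 397.8 CPM per kilobase (range 375 to 410.2), Cdh2 106.8 (92.1 to 123) and Ctnna1 82.5 (78.2 to 87.5). Ctnnd1 followed at 37.3 (35.5 to 38.9) and Efna5 at 33.1 (31.3 to 34.6). These 5 ranges did not overlap one another. Cdh1 averaged 22.2 (13.5 to 38.8), Ctnna2 18.4 (15.6 to 22.4), Epha2 14.9 (11.1 to 19.1) and Jup 14.2 (12.9 to 15.3) CPM per kilobase, and from Efna5 down each range overlapped the next, so their order is not settled by these pools. It also depended on the exons counted as length. With the exons of all annotated transcripts Efna5 stood above Ctnnd1 and Epha2 above Ctnna2.

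**Figure D3:**
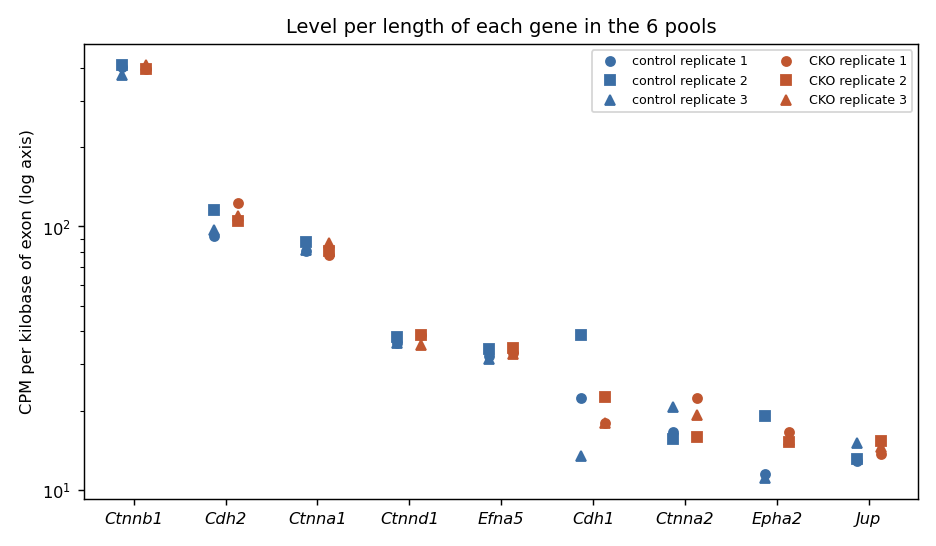
Level of each gene in CPM per kilobase of exon on a log axis, in control (blue) and CKO-labelled (orange) pools, ordered by the mean of the 6 pools. Ctnnb1 stands highest at 375 to 410.2, and the ranges of Efna5, Cdh1, Ctnna2, Epha2 and Jup run into their neighbours.

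The balance within 4 pairs of partners was compared inside each library, which needs no scaling between libraries. Cdh1 made up 19.5%, 25.2% and 12.2% of the CPM per kilobase of Cdh1 and Cdh2 in control replicates 1, 2 and 3, and 12.8%, 17.7% and 14.2% in CKO-labelled replicates 1, 2 and 3. N-cadherin thus exceeded E-cadherin in all 6 pools. Ctnna2 made up 17.1%, 15.1% and 20.2% of the alpha-catenin pair in control and 22.3%, 16.5% and 18.3% in CKO-labelled pools, with alpha-E-catenin the major form throughout. Jup made up 3.12%, 3.12% and 3.88% of the plakoglobin and beta-catenin pair in control and 3.36%, 3.73% and 3.43% in CKO-labelled pools. Plakoglobin was the minor partner in every pool. Epha2 made up 26.4%, 35.7% and 26.2% of the receptor and ligand pair in control and 33.4%, 30.7% and 32.0% in CKO-labelled pools. The groups overlapped for all 4 pairs. The log2 ratio of counts differed by -0.37 for Cdh1 to Cdh2, 0.15 for Ctnna2 to Ctnna1, 0.065 for Jup to Ctnnb1 and 0.19 for Epha2 to Efna5, with exact two-sided permutation p of 0.5, 0.6, 0.6 and 0.4 and 0.6 for each after adjustment over the 4 pairs. With 1 library left out these differences ranged from -0.72 (without control replicate 3) to -0.083 (without control replicate 2) for Cdh1 to Cdh2, and from 0.00016 (without CKO-labelled replicate 1) to 0.28 (without control replicate 3) for Ctnna2 to Ctnna1. They ranged from 0.011 (without control replicate 2) to 0.17 (without control replicate 3) for Jup to Ctnnb1 and from 0.077 (without control replicate 3) to 0.40 (without control replicate 2) for Epha2 to Efna5.

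**Figure D4:**
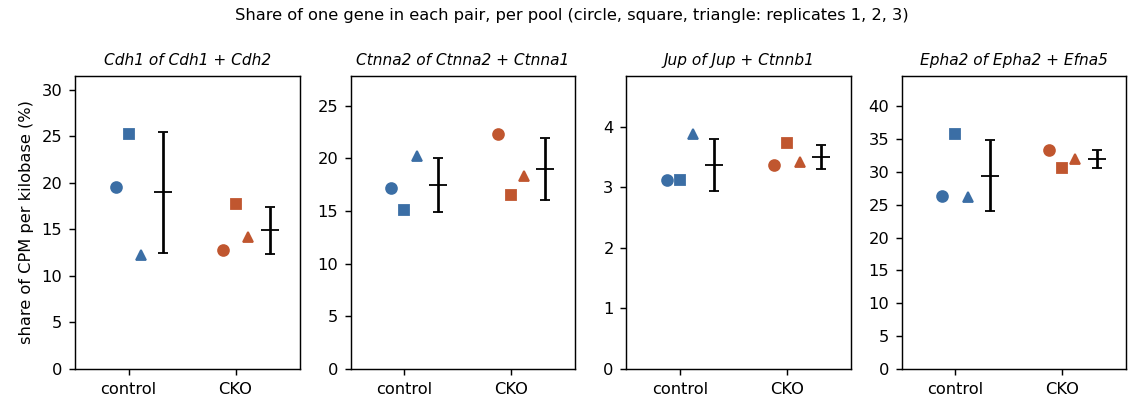
Share in percent, per kilobase of exon, of the first gene in each of 4 pairs, for 3 control (blue) and 3 CKO-labelled (orange) pools, with mean and SD in black and axes from 0. The groups overlap in every panel, and the control pools spread from 12.2% to 25.2% for Cdh1.

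The cadherin, Eph receptor and ephrin members were ranked within their families. Cdh2 took 41.7 ± 3.47% of the CPM per kilobase of the 16 cadherins tested in control and 44.8 ± 4.74% in CKO-labelled pools (SD, n = 3 each), ahead of Cdh11 at 19.4 ± 5.32% and 18.7 ± 2.11%. Cdh1 ranked 4 of 16, with 10.1 ± 4.76% and 7.77 ± 0.79%. Epha2 ranked 2 of 13 Eph receptors, with 15.2 ± 6.69% and 15.5 ± 1.78%. Efna5 took 57.9 ± 3.31% and 57.9 ± 1.52% of the 5 A-type ephrins, and ranked 2 of all 8 ephrins with 22.4 ± 1.55% and 21.8 ± 0.85%. Each difference between groups was smaller than the larger of its SDs.

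Other genes of the same structures were taken from 8 lists with 79 genes tested, of which edgeR called 0 after adjustment and 2 at an unadjusted p under 0.05 (2.53%, beside 3.55% of all genes). DESeq2 called 0 of them. Groups did not overlap for 6 of the 79 (7.59%, beside 8.36%), with 4 lower and 2 higher in CKO-labelled pools. Of the 14 other cadherins 12 had a log2 fold change above 0, with a median of 0.11. Cdh11 had the highest level per kilobase and a log2 fold change of 0.0082, while the largest changes were 0.64 for Cdh13, a cadherin without a cytoplasmic tail, and 0.56 for Cdh15, the cadherin of muscle precursors. None of the 14 had an unadjusted p under 0.05.

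Of the 8 catenin relatives 6 had a log2 fold change below 0, with a median of -0.12. Pkp2, a plakophilin of desmosomes, stood at 39.2, 62.2 and 35.8 CPM in control and 30.5, 22.5 and 27.9 CPM in CKO-labelled pools, with a log2 fold change of -0.76 (SE 0.23, edgeR p = 0.0156, adjusted p = 0.9998, exact permutation p = 0.1). Its groups did not overlap, and it was the gene of this list with an unadjusted p under 0.05. Arvcf, a p120-catenin relative with the highest level per kilobase of the list, had a log2 fold change of -0.36 with overlapping groups. Pkp4, named after its values were seen because its groups did not overlap, had a log2 fold change of -0.13 and an edgeR p of 0.0769.

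The list of 20 junction linkers holds nectins beside genes that tie cadherin and nectin complexes to actin. Of these 20 genes, 8 had a log2 fold change above 0 and 12 below, with a median of -0.032. None had an unadjusted p under 0.05. Cttn, the actin regulator cortactin, had the highest level per kilobase and a log2 fold change of -0.035, and Lmo7 and Nectin4 had the largest values at 0.37 and 0.34. Lmo7 stood at 14.3 CPM in CKO-labelled replicate 2 and at 3.69 to 8.87 CPM in the other pools. Nectin1, also named after its values were seen, was the gene of this list whose groups did not overlap, at 0.22 and an edgeR p of 0.0705. Of the 9 desmosome genes listed 3 were in the table, Dsp, Dsc2 and Ppl, with log2 fold changes of 0.43, 0.35 and 0.99. Dsp and Dsc2 stood at 49.9 and 18.7 CPM in CKO-labelled replicate 2. In the other pools they ranged from 6.42 to 31.6 CPM and from 5.92 to 12.5 CPM. Ppl, periplakin, stood at 11.0, 12.97 and 2.74 CPM in control and 15.95, 23.7 and 13.01 CPM in CKO-labelled pools, which did not overlap by a narrow margin (edgeR p = 0.113, exact permutation p = 0.1).

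Of the 12 other Eph receptors 11 had a log2 fold change above 0, with a median of 0.17 and no unadjusted p under 0.05. Ephb2 had the highest level per kilobase, with a log2 fold change of 0.057, and the largest values were 0.43 for Epha4 and 0.38 for Epha6. Of the 7 other ephrins 5 were above 0, with a median of 0.084. Efnb2 led per kilobase at 0.084, and the largest were -0.23 for Efna1 and 0.21 for Efnb3. All 19 of these receptors and ligands had overlapping groups, as Epha2 and Efna5 did.

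The 6 repressors of cadherin genes had a median log2 fold change of 0.29 with 5 above 0 and none at an unadjusted p under 0.05. Zeb2 led per kilobase at 0.054. Among those with a mean of at least 2 CPM, Twist1 and Twist2, factors of mesenchyme, had the largest values at 0.64 and 0.53. Snai1, below that level, was the highest of the list at 0.74, and Snai2 was the lowest at -0.20. Twist1 and Twist2 stood at 19.5 and 13.8 CPM in CKO-labelled replicate 2 and at 10.07 and 8.74 CPM in control replicate 1. In the other pools they ranged from 1.75 to 3.59 CPM and from 1.13 to 1.40 CPM. Of the 9 enzymes that cleave, dephosphorylate or ubiquitinate cadherins, 4 were above 0 and 5 below, with a median of -0.13. Ptprf, a receptor phosphatase, led per kilobase at 0.014. Adam10, which sheds cadherin ectodomains, was -0.29 (SE 0.13, edgeR p = 0.0553, exact permutation p = 0.1) with groups that did not overlap. Ptprk, a receptor phosphatase of junctions, stood at 123, 117 and 101 CPM in control and 92.9, 94.8 and 98.2 CPM in CKO-labelled pools, a log2 fold change of -0.25 (SE 0.09, edgeR p = 0.0274, adjusted p = 0.9998, exact permutation p = 0.1).

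Markers of cell types moved between pools and were set beside the members. The 12 lens fibre markers, all in the table, summed to 11360, 23750 and 8109 CPM in control and 11250, 8734 and 7620 CPM in CKO-labelled pools. These sums overlapped, but all 12 genes had a log2 fold change below 0, with a median of -0.94, and 6 had an unadjusted p under 0.05 in edgeR (0 after adjustment), 5 had groups that did not overlap and 4 were called by DESeq2. The lowest was -4.64 for Dnase2b, the nuclease that degrades fibre cell DNA, while the filament gene Bfsp1 stood at 638 to 1945 CPM in control and 137 to 199 CPM in CKO-labelled pools. The 4 lens epithelium markers summed to 947 to 1157 CPM in control and 930 to 949 CPM in CKO-labelled pools, so lens markers were present in all 6 pools. Control replicate 2, the pool with the highest Cdh1, Ctnna1 and Epha2 levels, also had the highest fibre markers. Its lens epithelium sum was the highest as well, at 1157 CPM beside 1064 CPM in control replicate 1. Foxe3, a factor of lens epithelium, stood there at 192 CPM against 69.9 to 92.5 CPM in the other pools. Gja1 stood at 340 CPM against 194 to 319 CPM, while Pax6 at 598 CPM lay within the 586 to 662 CPM of the other pools. Control replicate 2 had the lowest retina markers, with 1207 CPM against 1762 to 2602 CPM over the 10 genes, and the lowest Ctnna2. Ctnna2 was highest in CKO-labelled replicate 1 and control replicate 3, where retina markers summed to 1932 and 2602 CPM. Control replicate 1 had nearly the same retina sum, 1934 CPM, with Ctnna2 at 69.4 CPM, and CKO-labelled replicate 3 had 2461 CPM with Ctnna2 at 80.5 CPM. The part of these tissues in the levels of the members was not tested.

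The 10 mesenchyme markers ranged from 329 to 2344 CPM in control and from 365 to 4058 CPM in CKO-labelled pools, highest in control replicate 1 and CKO-labelled replicate 2. The 6 pigment cell markers were highest in the same pools, at 341 CPM each. Of the 10 surface ectoderm markers 8 were in the table, and they summed to 48.2 to 113 CPM in control and 64.2 to 174 CPM in CKO-labelled pools. Epcam, an epithelial marker of that list, stood at 7.715 to 12.8 CPM and Krt5 at 14.97 to 66.0 CPM. Cdh1, which surface ectoderm also expresses, was 59.8 CPM in control replicate 3, where that list was lowest, and 99.7 CPM in CKO-labelled replicate 2, where it was highest, but its highest value was in control replicate 2, with 101 CPM of those markers. Vessel, blood and macrophage markers summed to 229 to 310 CPM, 279 to 1267 CPM and 55.9 to 126 CPM over all 6 pools, each with overlapping groups. By log2 fold change, all 4 lens epithelium, 7 of 8 vessel, 3 of 3 blood and 6 of 6 macrophage markers were below 0. Their medians were -0.333, -0.325, -0.976 and -0.507. Above 0 were 10 of 10 retina, 8 of 10 mesenchyme, 5 of 8 surface ectoderm and 4 of 6 pigment cell markers. Those medians were 0.161, 0.46, 0.343 and 0.0567. In edgeR 1 vessel and 1 macrophage gene had an unadjusted p under 0.05, and no gene of these lists passed after adjustment. The part of these tissues in the levels was not tested either.

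**Figure D5:**
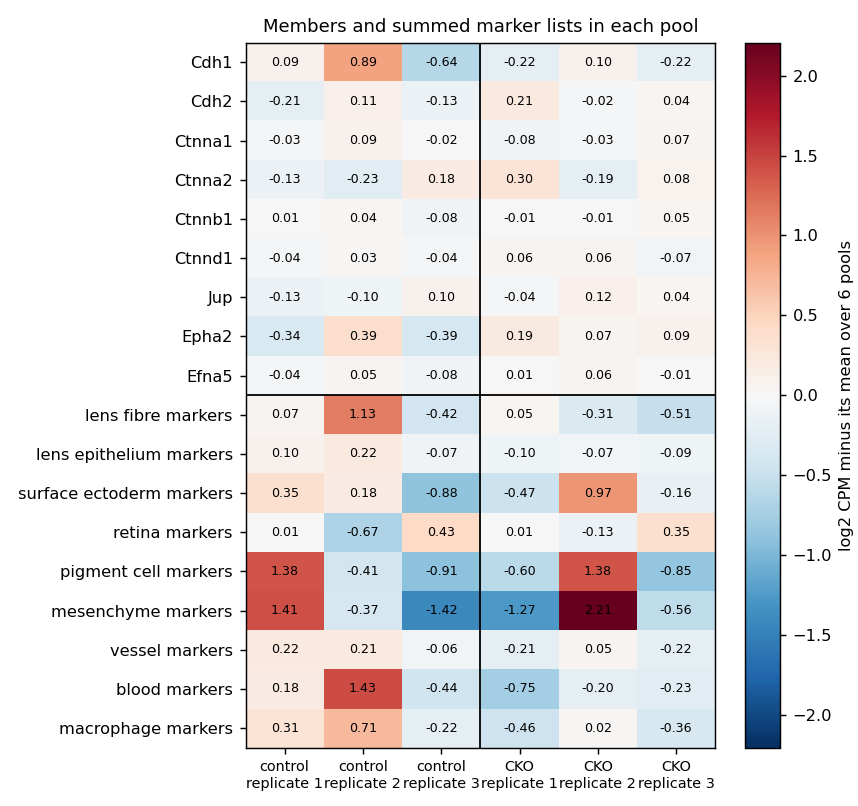
Log2 CPM of each member and of the summed CPM of each marker list, minus the mean over the 6 pools, with pools in columns and the printed value in each cell (red above, blue below the mean). Control replicate 2 is above the mean for lens fibre markers and every member but Ctnna2 and Jup, and below it for retina markers, Ctnna2 and Jup.

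The genes whose levels followed each member most closely over the 6 libraries were found among 10420 genes with a mean of at least 10 CPM. They were Ergic3 and Uso1 for Cdh1 (Pearson r of log2 CPM 0.996 each), Fam83h and Spry2 for Cdh2 (0.986 and 0.979), and Rps15 and Rfxap for Ctnna1 (0.992 and 0.99). For Ctnna2 they were Rad51d and 2900011O08Rik (0.989 and 0.985), for Ctnnb1 Dnpep (0.975), and for Ctnnd1 Telo2 and Plxna1 (0.996 and 0.991). Fbxw11 and Ppp1cb followed Jup (0.98 and 0.978), Pter and Atpaf2 followed Epha2 (0.999 and 0.997), and Nfic and Mov10 followed Efna5 (0.989 and 0.985). These are descriptions over 6 points that share a library and its scaling, picked as the highest of many, and no member appeared in the list of another.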

How the data were processed

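Poly(A) RNA of 6 pools of E14.5 lenses was sequenced. The authors trimmed reads with Trim Galore, aligned them to mm10 with TopHat2 2.0.13, counted fragments per RefSeq gene with HTSeq 0.6.1, and deposited the raw counts. Per the study's methods, only genes averaging over 1 FPKM in control or CKO were kept. The strand option of the counting is not given in the sources used here. The table had 0 unmapped sample columns, and 12879 of 13024 genes had at least 10 counts in at least 3 libraries.

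Counts were scaled by TMM and tested with edgeR 4.0.16 (R 4.3.3, robust glmQLFit and glmQLFTest), without covariates, with Benjamini-Hochberg adjustment over all genes tested. DESeq2 1.42.0 and limma 3.58.1 (voom) were alternatives, with other scalings and filters, the replicate block and each library left out. Pools were biological replicates, and pairs of the same group differed by more than counting noise. SEs were taken from the fold change and the F statistic. Exact permutation tests used log2 values with an offset of 0.5. Positions and exon lengths came from GENCODE M21, with length taken over transcripts paired to RefSeq, and promoter windows from RefSeq on GRCm38.p6. Python 3.11.15, pandas 2.3.3 and, for plots, matplotlib 3.10.9 were used.

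The members and lists were chosen with earlier results of these data known. Named genes were all members and Gata3, in each other list any gene with adjusted p under 0.05, the gene with the highest CPM per kilobase and the 2 with the largest change at a mean of at least 2 CPM, and the 2 genes most correlated with each member. One of these correlated genes is not reported here. Pkp4 and Nectin1 were added after their values were seen. Titles number the CKO libraries 1 to 3 and the title numbers are used.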

Additional observations from a re-analysis of the deposited data

How the results depend on the processing

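No member was called under any of the 8 other settings or with any of the 6 libraries left out. The number of genes called, 0 in the edgeR fit, was 85 in DESeq2, 1 without TMM factors and 0 to 1 with a library left out. Without TMM factors the median log2 fold change of all genes rose to 0.10, and Ctnna1 read 0.082, which is below that median. The cause of these changes was not tested. Leaving out libraries gave ranges of -0.64 to 0.14 for Cdh1, -0.066 to 0.023 for Ctnna1, -0.016 to 0.057 for Ctnnb1, 0.05 to 0.49 for Epha2, 0.076 to 0.26 for Cdh2 and 0.0014 to 0.25 for Ctnna2, and the sign of Ctnnb1 turned without control replicate 3. The other members and the 4 ratios kept their sign. With the replicate block by title number Cdh1 was -0.23, 0 genes were called and 516 had an unadjusted p under 0.05. Deviations of libraries with the same number correlated at -0.51, 0.09 and 0.48, beside -0.485 to 0.582 for other numbers. With 3 pools a group, such correlations cannot show whether pools of the same number were prepared together. The block changed no call. With 3 pools a group, the exact tests could not reach 0.05.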
